A study of Homo sapiens with 16 samples.

Results

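GATA1, GATA2 and ZFPM1 encode the 3 factors on which erythroid and megakaryocytic transcription is built, and their RNA was followed in K562 cells over 8 time points of phorbol ester treatment. The genes were taken by symbol, and estimated reads were summed over all annotated transcripts of each gene and also kept per transcript. They made up 3 of the 35052 genes with a transcript in the files and 13 of 177456 transcripts. All 3 genes passed the filter on low counts among 17559 genes tested, and all 13 transcripts passed it among 88659 transcripts tested.

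GATA1 is the zinc-finger activator needed for red cell and platelet precursors, and GATA2 is its relative in stem and progenitor cells. Both bind the same short DNA letters, and in erythroid differentiation GATA1 replaces GATA2 at many sites, an exchange known as the GATA switch. ZFPM1, also called FOG1 (friend of GATA 1), does not bind DNA at these sites itself but docks onto the amino-terminal zinc finger of GATA1 and brings the NuRD (nucleosome remodelling and deacetylase) complex. K562, an erythroleukaemia line from a chronic myeloid leukaemia, expresses globins and turns towards megakaryocytes when protein kinase C is activated by the phorbol ester PMA.

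Every group was K562 of genotype WT, and the labels give 25 nM PMA with 2 libraries at each time, namely before PMA (0 h), early on at 0.5 and 1.5 h, then at 3 and 6 h, and late at 24, 48 and 72 h. The time of 0 h served as the untreated group, so no vehicle control was analysed here and time in culture runs with time in PMA. Medium was replaced after 24 and 48 h, and libraries were made from DNase-treated total RNA after depletion of ribosomal RNA. Nothing in the labels says that the 2 libraries came from separate cultures, so p-values measure the spread between these libraries, which may be technical, in 1 cell line.

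Libraries held 27285773 to 54056289 estimated reads, with normalisation factors of 0.854 to 1.14, and the log2 values of the 2 libraries of a time correlated across genes at r = 0.984 to 0.993. The 11 K562 markers, of which GATA1 is 1, summed to 2612 to 5760 TPM (a level per transcript length, scaled to the same total in every library) with no marker listed at 0. Their sum was 5346 and 5760 TPM at 0 h, 3108 and 2612 TPM at 24 h and 5089 and 3890 TPM at 72 h. At 24 h 2 were called higher and 7 lower, against 31.7% and 26.6% of all genes. At 72 h 4 were higher and 3 lower, against 31.7% and 26.9%. The 20 markers of other blood, stromal and epithelial cells summed to 679 to 739 TPM at 0 and 0.5 h and to 3668 to 3837 TPM at 48 and 72 h. At 72 h 11 of 16 tested were called higher and 3 lower (median log2 difference 1.81), and over all genes 31.7% and 26.9% (median -0.032). The largest rise was that of MPO, the myeloperoxidase gene of myeloid cells, from 0.031 to 11.7 TPM. The keratin gene KRT8, itself well expressed in K562, held 259 TPM of that sum at 0 h and 2126 TPM at 72 h, while ELANE, MS4A1, CD2 and CD3E of neutrophils, B cells and T cells never exceeded 11 reads. The part of these markers in the results below was not tested. The 2 libraries at 0 h differed along the GC content of genes (r = -0.727 over 9983 genes between their difference and GC). The same r was -0.568 at 72 h, 0.376 at 3 h and -0.316 at 24 h, and -0.277 to 0.227 at the other times. Log2 differences from 0 h also followed GC over these genes, with r = -0.761 at 0.5 h and -0.428 at 1.5 h. At later times that r was -0.168 to -0.025. The GC content of the 3 genes was 60.8% (GATA1), 60.6% (GATA2) and 67.4% (ZFPM1). Values without each library's GC trend are given where they change a result.

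GATA1 lies on chrX:48786554-48794311 (plus strand), GATA2 on chr3:128479427-128493185 (minus strand) and ZFPM1 on chr16:88453317-88537016 (plus strand) in GRCh38. GATA2 has a distal start at 128493185 and starts inside the gene, including one at 128488530. The 3 genes changed at different times, so the DNA just before their starts is shown for comparison, with the 2 GATA2 starts separately. Each window runs from 250 to 37 bases before the RefSeq start (GRCh38.p14, 5′ to 3′ on the strand of the gene) and holds none of the gene's exons in GENCODE 29. Capitals mark CACCC or GGGTG, the letters of the KLF family site, and GCGNGGGCG or its reverse CGCCCNCGC, the letters of the EGR zinc-finger site.
GATA1, chrX:48786340-48786553, plus strand: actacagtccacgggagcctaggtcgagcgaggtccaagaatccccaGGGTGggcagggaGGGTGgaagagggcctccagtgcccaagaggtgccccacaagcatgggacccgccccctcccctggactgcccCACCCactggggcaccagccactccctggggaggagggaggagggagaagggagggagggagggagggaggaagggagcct
GATA2 distal start, chr3:128493238-128493451, minus strand: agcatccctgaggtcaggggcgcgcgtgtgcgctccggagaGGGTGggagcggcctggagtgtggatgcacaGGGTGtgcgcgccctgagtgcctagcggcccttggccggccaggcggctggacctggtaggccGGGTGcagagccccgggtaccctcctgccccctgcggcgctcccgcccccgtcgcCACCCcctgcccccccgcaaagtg
GATA2 proximal start, chr3:128488567-128488780, minus strand: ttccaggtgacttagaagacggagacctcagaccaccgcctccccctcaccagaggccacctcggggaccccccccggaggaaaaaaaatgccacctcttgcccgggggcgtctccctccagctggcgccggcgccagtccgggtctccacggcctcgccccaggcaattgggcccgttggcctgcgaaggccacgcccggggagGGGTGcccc
ZFPM1, chr16:88453030-88453243, plus strand: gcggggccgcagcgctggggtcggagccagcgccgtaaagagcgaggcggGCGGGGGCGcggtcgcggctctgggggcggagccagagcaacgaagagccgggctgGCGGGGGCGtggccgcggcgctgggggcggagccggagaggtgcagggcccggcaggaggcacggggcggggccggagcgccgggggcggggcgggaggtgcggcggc

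On both strands, the GATA1 window held the CACCC letters 3 times, the distal GATA2 window 4 times and the proximal GATA2 window once, and 49.8% of all 35116 RefSeq promoter windows of the same 214 bases held them at least once. The ZFPM1 window held none of these but held the EGR letters 2 times, which 6.86% of all windows held. The proximal GATA2 window also held the E-box letters CANNTG 3 times, against a share of 57.0% of all windows, and the other windows held none. None of the 4 windows held GATA or TATC, which 41.9% of windows held, or the AP-1 letters TGANTCA, which 5.78% held. No match overlapped another. The ZFPM1 window was 83.2% G and C, against 68.7% for GATA1, 75.2% for the distal and 70.6% for the proximal GATA2 window and a median of 57.5% over all windows.

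The GATA1 level fell to its lowest by 6 h, and from 48 h on its libraries overlapped those of 0 h. Before PMA, replicates 1 and 2 held 128 and 167 TPM. They held 113 and 114 TPM after 0.5 h, 98.0 and 95.2 TPM after 1.5 h, 58.0 and 45.5 TPM after 3 h and only 9.13 and 8.64 TPM after 6 h. The level then climbed to 93.7 and 86.6 TPM by 24 h, 162 and 156 TPM by 48 h and 152 and 164 TPM by 72 h. The libraries of 0.5 to 24 h all lay below both libraries of 0 h, those of 6 h lay lowest of all 16, and those of 48 and 72 h overlapped those of 0 h. In a bulk library, a fall of this kind in fewer cells and less GATA1 RNA in every cell cannot be told apart.

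By edgeR's quasi-likelihood test on counts, with Benjamini-Hochberg adjustment over all genes tested, GATA1 fell at 1.5 h (log2 difference -0.58, SE 0.15, adjusted p = 0.0214), 3 h (-1.26, SE 0.16, adjusted p = 2.17e-05) and 6 h (-3.76, SE 0.18, adjusted p = 7.11e-10). The 6 h value is 13.6-fold lower than at 0 h, and 697 of the 17559 genes had a larger difference in either direction. At 24 h GATA1 was still 1.56-fold lower (log2 difference -0.64, adjusted p = 0.00297). At 48 and 72 h its log2 differences of 0.047 and 0.019 (SE 0.15 for both, adjusted p = 0.811 and 0.923) were not called and turned to -0.11 and -0.13 when libraries were scaled to total counts. That scaling moved the median of all genes by -0.28 (3 h), -0.35 (6 h), -0.25 (24 h), -0.16 (48 h) and -0.16 (72 h) on the log2 scale, and under it the median gene stood at -0.18 and -0.19 at 48 and 72 h.

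The GATA1 calls at 1.5 and 24 h were each lost on leaving out some single libraries. The 1.5 h difference itself moved with the libraries of 0 h (-0.82 to -0.30 over all left out) and little with those of 1.5 h. Without replicate 2 of 0 h, the higher of the 2, the GATA1 difference was -0.30 at 1.5 h (adjusted p = 0.276) and -0.35 at 24 h (adjusted p = 0.0534), and without replicate 1 or 2 of 1.5 h it was -0.55 and -0.62 (adjusted p = 0.123 and 0.101). With each library's GC trend removed, the GATA1 difference was -0.31 at 1.5 h (adjusted p = 0.0158) and its 6 h value was -3.48. The 6 h value lay between -4.01 and -3.48 whichever library was left out.

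**Figure D1:**
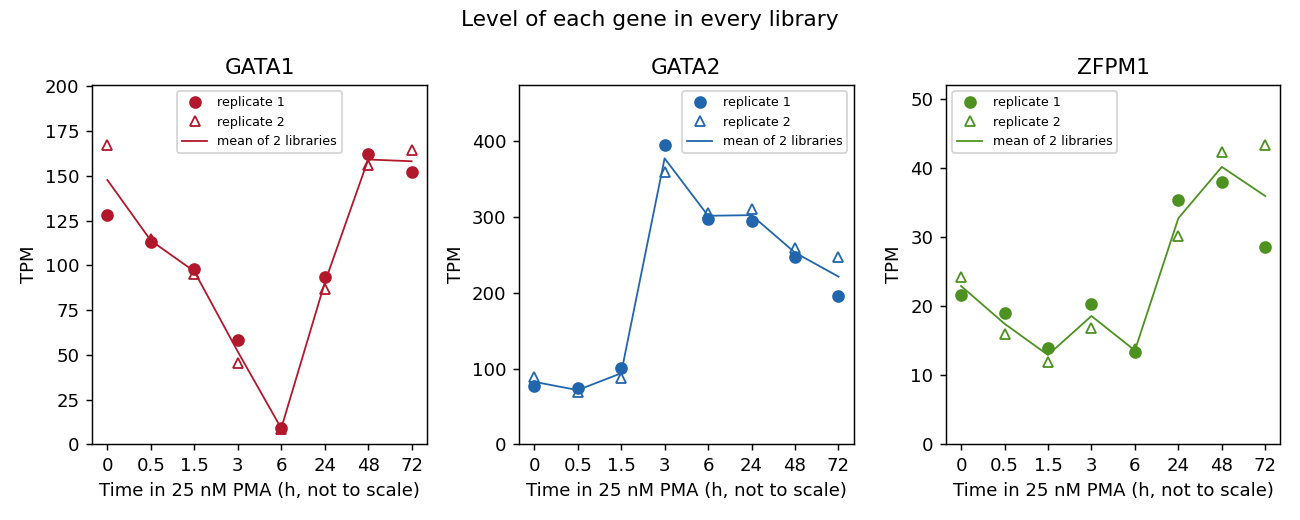
TPM of GATA1, GATA2 and ZFPM1 in each of the 16 libraries over the 8 time points (filled circles, replicate 1; open triangles, replicate 2; line, mean of 2), each panel with its own axis from 0. GATA1 is lowest at 6 h (9.13 and 8.64 TPM), GATA2 is highest at 3 h (395 and 360 TPM), and ZFPM1 is highest from 24 h on.

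GATA2 went the other way, with its largest step between 1.5 and 3 h. Its libraries held 76.3 and 88.5 TPM before PMA, 74.3 and 68.6 TPM after 0.5 h and 100.3 and 87.1 TPM after 1.5 h. By 3 h they held 395 and 360 TPM, the highest of the course. The level then went to 298 and 306 TPM after 6 h, 295 and 310 TPM after 24 h, 247 and 259 TPM after 48 h and 196 and 247 TPM after 72 h. All 10 libraries from 3 h on lay above all 6 earlier ones, and the libraries of 0 and 1.5 h overlapped, as did those of 6 and 24 h and those of 48 and 72 h.

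GATA2 rose 5.19-fold at 3 h against 0 h (log2 difference 2.38, SE 0.16, edgeR adjusted p = 7.45e-08) and 4.23-fold at 6 h (adjusted p = 9.08e-08). GATA2 was still called after a day and longer, with a fold of 3.68 for 24 h, 2.82 for 48 h and 2.37 for 72 h (adjusted p = 1.23e-05 for the last). Its differences of -0.30 at 0.5 h and 0.11 at 1.5 h were not called (adjusted p = 0.270 and 0.683). With the GC trend removed they were 0.024 and 0.37, the second with an adjusted p of 0.00672, and without replicate 1 of 0 h the 0.5 h difference was -0.50 (adjusted p = 0.0447).

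ZFPM1, the cofactor, was called higher only from 24 h on, with a largest log2 difference of 1.23 against 2.38 for GATA2. Its libraries held 21.6 and 24.3 TPM before PMA, 19.0 and 15.9 TPM after 0.5 h, 13.9 and 11.9 TPM after 1.5 h, 20.3 and 16.9 TPM after 3 h and 13.4 and 13.8 TPM after 6 h. They held 35.4 and 30.1 TPM after 24 h, 38.0 and 42.4 TPM after 48 h and 28.5 and 43.4 TPM after 72 h. All 6 libraries from 24 h on lay above all 10 earlier ones, and the libraries of 24, 48 and 72 h overlapped, those of 72 h spanning the widest range.

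Per read, ZFPM1 held 28.0 and 41.3 CPM (reads scaled to library size) before PMA, 70.6 and 80.2 CPM after 24 h, 76.1 and 86.8 CPM after 48 h and 48.2 and 78.4 CPM after 72 h. It rose 2.18-fold at 24 h (log2 difference 1.12, SE 0.22, edgeR adjusted p = 5.32e-04), 2.35-fold at 48 h (adjusted p = 2.58e-04) and 1.83-fold at 72 h (adjusted p = 0.00331). On counts derived from TPM and gene length, in which a longer transcript does not count for more reads, the log2 differences of 24, 48 and 72 h were 0.64 (adjusted p = 0.00735), 0.82 and 0.64. With the GC trend removed they were 1.52, 1.49 and 1.33. The 72 h call was lost without replicate 2 of 72 h (0.48, adjusted p = 0.0607).

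Before its rise ZFPM1 fell at 1.5 h (log2 difference -0.72, SE 0.22, adjusted p = 0.0402) and 6 h (-0.68, SE 0.22, adjusted p = 0.0170), and its value of -0.25 in between, for 3 h, was not called (adjusted p = 0.396). These early calls were not stable. The 6 h call was lost with the GC trend removed (-0.15, adjusted p = 0.0772), on length-scaled counts (-0.40, adjusted p = 0.0751), without replicate 2 of 0 h (-0.38, adjusted p = 0.211) and without replicate 1 of 6 h (-0.61, adjusted p = 0.0864). The 1.5 h value was -0.26 with the GC trend removed (adjusted p = 0.0164) and -0.41 without replicate 2 of 0 h (adjusted p = 0.394), and without replicate 1 or 2 of 1.5 h its adjusted p was 0.149 or 0.179.

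Counted together, none of the 3 genes was called at 0.5 h against 0 h, where 0.171% of genes tested were called. At 1.5 h GATA1 and ZFPM1 were called, against 17.1% of all genes. At 3 h GATA1 and GATA2 were called, against 42% of all genes. At 6 h all 3 were called, against 57.2%, and at 24 h all 3, against 58.3%. At 48 h GATA2 and ZFPM1 were called, against 54.3%, and at 72 h the same 2 genes, against 58.6%. Over the whole course the 3 genes were called (adjusted p = 8.24e-09 for GATA1, 7.93e-09 for GATA2 and 1.62e-06 for ZFPM1), as were 82.9% of all genes.

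**Figure D2:**
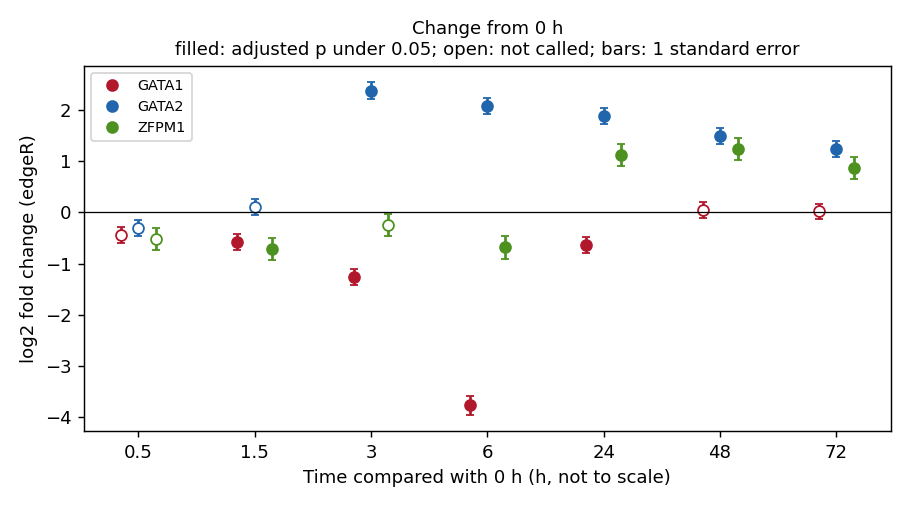
Log2 fold change of each gene against 0 h (edgeR, bars of 1 standard error, 2 libraries a time and all 16 in the fit), with filled points at an adjusted p under 0.05. GATA1 and GATA2 lie on opposite sides of 0 from 1.5 to 24 h, with GATA2 not called at 1.5 h, and farthest apart at 6 h (-3.76 and 2.08). ZFPM1 crosses from below to above 0 between 6 and 24 h.

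The steps between neighbouring times placed each change. From 0.5 to 1.5 h none of the 3 was called (5.77% of all genes were). The values in that step were 0.41 for GATA2 (adjusted p = 0.191) and -0.20 for ZFPM1 (adjusted p = 0.800). With the GC trend removed both were called (0.35, adjusted p = 0.0142, and -0.30, adjusted p = 0.0106), and GATA2 was also called with only these 2 times in the fit (0.43, adjusted p = 7.51e-04) and without a low-count filter (0.41, adjusted p = 0.0326). From 1.5 to 3 h GATA2 rose 4.82-fold (log2 difference 2.27, adjusted p = 2.41e-07) and GATA1 fell by 0.68 (adjusted p = 0.00530), where 25.1% of genes were called. The GATA1 step was lost without replicate 2 of 3 h (-0.47, adjusted p = 0.0625). From 3 to 6 h GATA1 alone of the 3 was called, with a log2 difference of -2.50 (SE 0.17, adjusted p = 1.13e-07), where 41.2% of genes were called. The GATA2 step of -0.30 over the same hours was not called (adjusted p = 0.152) and was -0.38 with an adjusted p of 0.0484 when scaled to total counts.

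From 6 to 24 h, where 56.6% of genes were called, GATA1 rose 8.73-fold (log2 difference 3.13, adjusted p = 1.04e-08) and ZFPM1 3.49-fold (1.80, adjusted p = 1.35e-05). GATA2 differed by -0.20 in that step and was not called (adjusted p = 0.284), although with the GC trend removed it was called lower (-0.55, adjusted p = 5.12e-05). From 24 to 48 h GATA1 rose by a further 0.69 (adjusted p = 0.00893), where 15% of genes were called. That step was lost without replicate 1 of 24 h (0.66, adjusted p = 0.0651) or replicate 2 of 48 h (0.65, adjusted p = 0.0675). From 48 to 72 h none of the 3 was called (1.47% of all genes were).

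Ordered by mean TPM, GATA1 stood lowest at 6 h (8.89), then at 3 h (51.8), 24 h (90.2), 1.5 h (96.6), 0.5 h (114), 0 h (148), 72 h (158) and 48 h (159). Neighbours in this order had libraries that did not overlap, except 0, 72 and 48 h. For GATA2 the order ran 0.5 h (71.5), 0 h (82.4), 1.5 h (93.7), 72 h (221), 48 h (253), 6 h (301.7), 24 h (302) and 3 h (378), with overlap of 0 with 1.5 h, 72 with 48 h and 6 with 24 h. For ZFPM1 the order ran 1.5 h (12.9), 6 h (13.6), 0.5 h (17.5), 3 h (18.6), 0 h (22.9), 24 h (32.8), 72 h (36.0) and 48 h (40.2), with overlap of 1.5 with 6 h, 0.5 with 3 h, and of 72 h with both 24 and 48 h. Among the 17559 genes ranked by mean TPM, GATA1 moved from rank 962 at 0 h to rank 8430 at 6 h and back to 953 at 48 h. GATA2 moved from rank 1915 at 0 h to rank 327 after 3 h and rank 599 after 72 h, and ZFPM1 from rank 6367 at 0 h to 4465 at 48 h.

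The balance between the 2 GATA factors passed through a peak at 6 h. The ratio of GATA2 to GATA1 TPM within a library was 0.596 and 0.529 before PMA, 0.656 and 0.600 after 0.5 h and 1.02 and 0.914 after 1.5 h. It climbed to 6.82 and 7.90 by 3 h and 32.6 and 35.4 by 6 h. Later ratios were 3.14 and 3.58 (24 h), 1.52 and 1.66 (48 h) and 1.29 and 1.50 (72 h). In TPM summed over all forms, GATA1 was the more abundant of the 2 in all 4 libraries of 0 and 0.5 h and in 1 of 2 at 1.5 h. GATA2 was the more abundant in all 10 libraries from 3 h on. The GATA2 sum includes GATA2-204, a form with no coding sequence. GATA2-204 held 33.4 of 100.3 TPM in replicate 1 of 1.5 h and 81.7 of 196 TPM in replicate 1 of 72 h. GATA1 held 98.0 and 152 TPM in those 2 libraries, so GATA2 was the more abundant there only with that form counted.

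To test whether the balance at the end differed from that at the start, the 6 libraries of 0, 0.5 and 1.5 h were compared with the 6 of 24, 48 and 72 h. The mean log2 ratio of GATA2 to GATA1 was -0.52 ± 0.38 (SD, n = 6) early and 0.96 ± 0.62 late, a 2.79-fold shift with all 6 late libraries above all early ones (two-sided exact permutation test, p = 0.00216, the smallest that 924 permutations can give, and 0.00325 after adjustment over 3 ratios). The ratio of ZFPM1 to GATA1 shifted 1.85-fold upwards, from -2.76 ± 0.17 to -1.87 ± 0.37 (SD, n = 6), also with no overlap (exact permutation p = 0.00216, adjusted 0.00325). The 2 libraries of a time share that time, and this test takes them as separate units. With the 2 libraries of a time averaged, 3 times against 3, both shifts had an exact permutation p of 0.1, the smallest that 20 permutations can give (0.15 after adjustment). With 3 h added to the early window these 2 shifts were 0.63 and 0.57 on the log2 scale (exact permutation adjusted p = 0.563 and 0.217), and both ratios were already higher at 3 h than at 0 h.

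The ratio of ZFPM1 to GATA2 went down, from -2.25 to -2.84 on the log2 scale, a difference of -0.59 (exact permutation p = 0.0390, adjusted 0.0390). That call was lost on leaving out either library of 0 h, 0.5 h or 24 h (values of -0.56 to -0.49) and on estimated reads in place of TPM (-0.12, adjusted p = 0.502). It was also lost with coding transcripts alone (-0.41, adjusted p = 0.0887), with a replicate block (-0.59, adjusted p = 0.0600) and with 1 mean per time (adjusted p = 0.300), all by exact permutation. In TPM summed over all forms, ZFPM1 stood at 0.168 and 0.145 of GATA1 at 0 h and at 0.188 and 0.264 at 72 h. At 6 h this sum exceeded that of GATA1 (ratios of 1.47 and 1.59). The long form ZFPM1-201 did not, with 4.21 and 3.99 TPM at 6 h against 8.24 and 8.36 TPM for GATA1-202, the main GATA1 form. The rest of the ZFPM1 sum came from short forms on few reads, such as ZFPM1-202 with 25.7 and 23.9 reads. Against GATA2 the summed ZFPM1 stood lowest at 6 h, at 0.0451 and 0.0450 in the 2 libraries.

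**Figure D3:**
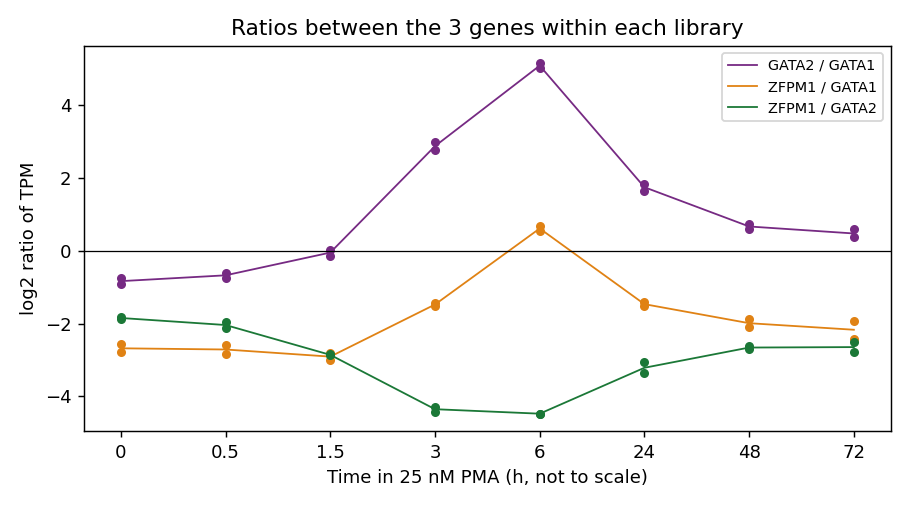
Log2 ratio of TPM between pairs of the 3 genes within each library (points) and the mean of the 2 libraries of a time (lines). The GATA2 to GATA1 ratio peaks at 6 h (5.03 and 5.15) and ends above its starting value. The ZFPM1 to GATA1 ratio, in TPM summed over all forms including short ones with few reads, is above 0 only at 6 h.

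Per transcript, GATA1 was carried by 1 form. GATA1-202, which encodes the full protein of 413 codons, held 90.2 to 100% of the GATA1 TPM, and the shorter GATA1-201 of 334 codons never exceeded 70.9 reads in a library. GATA1-202 followed the gene, with 128 and 167 TPM at 0 h and 8.24 and 8.36 TPM at 6 h. It fell at 3 h (log2 difference -1.18, edgeR on all transcripts, adjusted p = 0.00241) and 6 h (-3.87, adjusted p = 1.23e-06). Its value of -0.48 at 1.5 h was not called (adjusted p = 0.247). The lowest share of 90.2% was that of replicate 1 at 6 h, where the gene held fewest reads.

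GATA2 was spread over 4 forms, of which 3 were called higher from 3 h on. GATA2-201, from the distal start and with 480 codons, held 37.3 and 42.0 TPM before PMA, 43.2 and 41.2 TPM after 1.5 h, 179 and 157 TPM after 3 h and 91.2 and 86.8 TPM after 72 h. It rose by 2.44 on the log2 scale at 3 h (SE 0.14, adjusted p = 7.12e-06) and was 1.29 higher at 72 h (adjusted p = 1.52e-04). All its libraries from 3 h on lay above all earlier ones. GATA2-203, from the proximal start and with the same 480 codons, rose by 2.14 at 3 h (SE 0.41, adjusted p = 0.00972) and was 1.38 higher at 72 h (adjusted p = 0.0434). The 72 h call of GATA2-203 was lost without replicate 1 or 2 of 0 h (1.29 and 1.51, adjusted p = 0.177 and 0.136) and without replicate 2 of 72 h (0.75, adjusted p = 0.300). Its 6 h call (1.72, adjusted p = 0.0159) was lost without replicate 1 or 2 of 0 h or replicate 2 of 6 h (adjusted p = 0.0873, 0.0711 and 0.115).

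GATA2-204, a form with no coding sequence that covers the 3′ part of the gene, held 19.8 and 11.8 TPM before PMA, 33.4 and 28.5 TPM after 1.5 h and 132 and 117 TPM after 3 h. It was already called at 1.5 h (1.12, SE 0.24, adjusted p = 0.0498) and rose by 3.34 at 3 h (adjusted p = 3.62e-05). GATA2-202, of 466 codons, was not called at any time, and its 2 libraries lay far apart, for example 4.36 and 19.2 TPM at 0 h and 2.50 and 48.1 TPM at 72 h. GATA2-205 and GATA2-206 held at most 35.2 reads. Transcripts of 1 gene share most of their sequence, and the files hold no estimate of the error in dividing reads among them, so these tests leave that error out.

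ZFPM1 was carried in reads by ZFPM1-201, the form of 1006 codons. It held 7.19 and 10.0 TPM before PMA, 4.21 and 3.99 TPM after 6 h, 18.5 and 18.9 TPM after 24 h, 21.7 and 22.3 TPM after 48 h and 12.9 and 21.3 TPM after 72 h. All 6 libraries from 24 h on lay above the 10 earlier ones. It rose by 1.32 at 24 h (SE 0.25, adjusted p = 0.00542), 1.47 at 48 h (adjusted p = 0.00330) and 1.101 at 72 h (adjusted p = 0.0130). The 4 short forms, ZFPM1-202 to ZFPM1-205, lie in the 5′ part of the gene, held at most 81.0 reads each and were not called at any time. Being short, they weigh more in TPM than in reads, and ZFPM1-202 held 2.86 to 12.9 TPM on 19.2 to 81.0 reads. The 6 h value of ZFPM1-201, -0.77, was not called (adjusted p = 0.0576) but was called without replicate 1 of 0 h (-1.02, adjusted p = 0.0376) and among transcripts with at least 10 reads in every library (-0.83, adjusted p = 0.0194). The 72 h call of ZFPM1-201 was lost without replicate 1 of 0 h (0.84, adjusted p = 0.101) and without replicate 2 of 72 h (0.74, adjusted p = 0.116).

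In the transcript fit, no member transcript was called at 0.5 h (0.122% of all transcripts were) and 1 of 13 was called at 1.5 h (1.62% of all). At 3 h 4 of 13 were called, GATA1-202, GATA2-201, GATA2-203 and GATA2-204, against 9.75% of all transcripts. The same 4 were called at 6 h, against 17.3%. At 24, 48 and 72 h GATA2-201, GATA2-203, GATA2-204 and ZFPM1-201 were called, against 15.2%, 13.9% and 16.3% of all transcripts. GATA1-202 at 24 h missed the threshold (-0.54, adjusted p = 0.0658).

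Within ZFPM1 the balance of forms in TPM moved towards the long one, a share in which the few reads of the short forms weigh heavily. ZFPM1-201 made up 37.6 ± 3.60% (SD, n = 6) of the gene's TPM in the libraries of 0, 0.5 and 1.5 h and 53.2 ± 6.05% in those of 24, 48 and 72 h. All 6 late libraries lay above all 6 early ones (two-sided exact permutation test, p = 0.00216, adjusted over 9 transcript shares 0.0195). In reads its share went from 89.6 ± 1.71% to 94.2 ± 1.22% (SD, n = 6, exact permutation adjusted p = 0.00974). With 1 mean per time the TPM share had an exact permutation p of 0.1 (adjusted 0.225), the smallest that 3 times against 3 can give. With 0 and 0.5 h against 48 and 72 h, 4 libraries a side, the share of ZFPM1-201 differed by 14.7 percentage points. Its exact permutation p of 0.0286 is the smallest that 4 libraries a side can give. After adjustment it was 0.129 and not called, so the lost call does not show a weaker shift. The share of ZFPM1-204 went from 15.1 to 11.5% (exact permutation adjusted p = 0.0487), a call lost on leaving out any of 9 of the 12 libraries.

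No other of the 9 shares passed. The share of GATA2-201 was 47.3 ± 2.75% early and 42.1 ± 4.14% late (n = 6, exact permutation p = 0.0260, adjusted 0.0779). This difference was -0.84 percentage points in the replicate 1 libraries and -9.57 in the replicate 2 libraries. The early and late shares were 27.8 and 32.1% for GATA2-204 (adjusted p = 0.464) and 99.5 and 98.9% for GATA1-202 (adjusted p = 0.548), both by exact permutation.

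**Figure D4:**
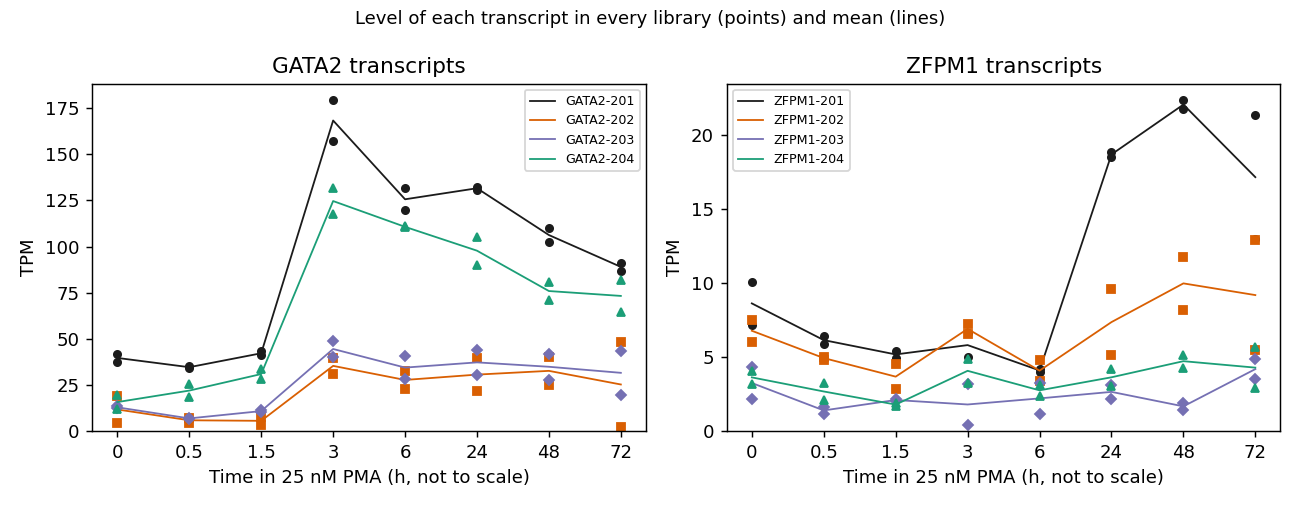
TPM of the main GATA2 and ZFPM1 transcripts in every library (points) and the mean of the 2 libraries of a time (lines), on axes from 0. GATA2-201 and GATA2-204 rise together at 3 h, the 2 points of GATA2-202 lie far apart at 0 and 72 h, and ZFPM1-201 rises at 24 h. ZFPM1-202 reaches 12.9 TPM in 1 library at 72 h, and ZFPM1-203 and ZFPM1-204 stay at or below 5.68 TPM.

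The genes with the most similar course were sought by Pearson's r of log2 CPM over the 16 libraries among 11269 genes of at least 5 CPM on average. These correlations describe 16 libraries at 8 shared times and carry no test. GMPR, the GMP reductase, was most like GATA1 (r = 0.992), with mean CPM of 42.3 at 0 h, 5.99 at 6 h and 41.7 at 72 h, followed by GRAMD4 (0.991) and ANKS6 (0.990). ITPKC, a kinase of inositol trisphosphate, was most like GATA2 (0.988), with 15.3 CPM at 1.5 h, 85.6 CPM at 3 h and 40.4 CPM at 72 h, followed by DOT1L, the histone H3 lysine methyltransferase (0.984), and DIRAS1 (0.976). PLPPR2 was most like ZFPM1 (0.985), with 11.7 CPM at 0 h, 6.50 at 6 h and 22.6 at 24 h, followed by the mitochondrial transporter gene ABCB8 (0.976) and DBN1, which encodes the actin-binding protein drebrin (0.975). Among the 3 genes themselves r was -0.48 for GATA1 with GATA2, 0.52 for GATA1 with ZFPM1 and 0.34 for GATA2 with ZFPM1.

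Of the 9 genes of the GATA and FOG family, 7 passed the filter. GATA3 and GATA4 did not, with at most 9 reads in a library. At 6 h 1 of 7 was called higher, GATA2, and 4 lower, and all genes tested were called higher in 27.8% and lower in 29.4%. At 24 h 3 were higher and 3 lower, where the shares over all genes were 31.7% and 26.6%. At 72 h 3 were higher and 2 lower, where those shares were 31.7% and 26.9%. TRPS1, a GATA-type repressor, fell by 0.59 at 3 h and was 0.68 higher at 72 h, and ZFPM2, the FOG2 gene, fell at 6 and 72 h (log2 differences -0.92 and -0.67). GATA5 never exceeded 26 reads.

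Of 20 partners that share GATA1 sites or complexes, 19 passed, of which 3 were higher and 11 lower at 6 h (median log2 difference -0.67, against 0.0011 over all genes) and 6 higher and 8 lower at 72 h (median -0.091 against -0.032). The shares of all genes called higher and lower were 27.8% and 29.4% at 6 h and 31.7% and 26.9% at 72 h. Some, like GATA1, were called lower at 6 h but not at 72 h. Of these, and unlike GATA1, GFI1B, LMO2 and TAL1 were called higher at 72 h (log2 differences 0.80, 0.60 and 0.35). LYL1, a basic helix-loop-helix partner, held 118 and 134 TPM before PMA, 15.1 and 13.3 TPM after 6 h and 105 and 144 TPM after 72 h. GFI1B, a repressor of both lineages, went from 18.3 and 21.3 TPM to 2.16 and 3.23 TPM and then 34.5 and 39.9 TPM at the same times. LMO2, the bridging protein of the complex, went from 29.2 and 28.8 TPM to 8.12 and 5.99 TPM and then 45.7 and 46.2 TPM. It was already as low at 3 h (8.18 and 6.69 TPM), when GATA1 still held 58.0 and 45.5 TPM.

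Other partners called lower at 6 h were still called lower at 72 h, namely KLF1, LDB1, CBFA2T3, SPI1, BRD3 and LMO4. KLF1, the erythroid activator that binds CACCC letters, held 48.1 and 61.1 TPM before PMA, 1.20 and 1.09 TPM after 6 h and 3.15 and 3.12 TPM after 72 h. Its log2 difference was -5.26 at 6 h and still -4.19 at 72 h (edgeR adjusted p = 1.96e-10). LDB1, the dimerising cofactor, was lower at 6 and 72 h (-2.58 and -1.53). The lineage factor FLI1 of megakaryocytes held at most 0.109 TPM up to 24 h and 2.09 and 2.16 TPM at 72 h, and ZBTB7A, a repressor of fetal globin, rose by 1.59 at 6 h and 0.98 at 72 h.

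Among 16 corepressor genes that act with ZFPM1, all tested, 6 were higher and 3 lower at 6 h (median 0.0099), where 27.8% and 29.4% of all genes were (median 0.0011). At 72 h 4 were higher and 8 lower (median -0.26), where 31.7% and 26.9% of all genes were (median -0.032). CHD4, the remodelling ATPase of NuRD, rose by 0.98 at 6 h and 1.12 at 72 h. MTA1 was lower at those times (-0.50 and -0.84), and RBBP4, the most abundant of the list at 433 TPM at 0 h, was not called at either.

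Of 35 erythroid genes known as GATA1 targets, 34 were tested. None was higher and 22 were lower at 6 h (median -0.69), where 27.8% and 29.4% of all genes were called higher and lower. At 24 h 3 were higher and 27 lower (median -1.31), where those shares were 31.7% and 26.6%. At 72 h, when GATA1 itself was not called, 5 were higher and 22 lower (median -1.12), where they were 31.7% and 26.9%. The largest fall at 72 h among those with at least 1 CPM on average was that of EPB42, a red cell membrane protein gene, from 1.36 TPM at 0 h to being listed at 0 in both libraries. HBG2, the fetal globin gene and the most abundant of the list, was lower at 24 h (log2 difference -0.88, adjusted p = 0.00255) and its value at 72 h was -0.38, not called. KLF1, TAL1 and GFI1B belong both to this list and to that of the partners.

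Of 26 megakaryocyte genes known as GATA targets, 18 were tested, and 8 were higher and 6 lower at 6 h (median 0.29), against 27.8% and 29.4% of all genes. At 24 h 9 were higher and 4 lower (median 0.43), against 31.7% and 26.6%, and at 72 h 13 higher and 1 lower (median 2.11), against 31.7% and 26.9%. THBS1, encoding the platelet granule protein thrombospondin 1, went from 1.09 TPM at 0 h to 38.0 TPM after 6 h and 1230.0 TPM after 72 h. NFE2, needed for platelet release, held 90.0 TPM at 0 h, 1.53 at 6 h and 56.4 at 72 h, and was the 1 gene called lower at 72 h. A gene could pass the filter on low counts through late libraries alone. FLI1, on this list, held at most 0.109 TPM up to 24 h and 2.09 and 2.16 TPM at 72 h. Such a gene has little room to be called lower, and listed genes low at every time were not tested. This can raise the share called higher, here and in the other lists.

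Of 18 progenitor genes linked to GATA2, 16 were tested, and 4 were higher and 8 lower at 6 h (median -0.84), against 27.8% and 29.4% of all genes, and 8 higher and 5 lower at 72 h (median 0.17), against 31.7% and 26.9%. ERG, an ETS factor, went from 0.0102 TPM at 0 h to 3.99 TPM after 6 h and 16.8 TPM after 72 h, and MYB, the progenitor activator, from 143 TPM at 0 h to 37.7 TPM at 72 h. CD44, a surface receptor and the most abundant of this list, went from 13.5 TPM at 0 h to 1248 TPM at 6 h and 3904 TPM at 72 h. The lists were not tested as sets.

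**Figure D5:**
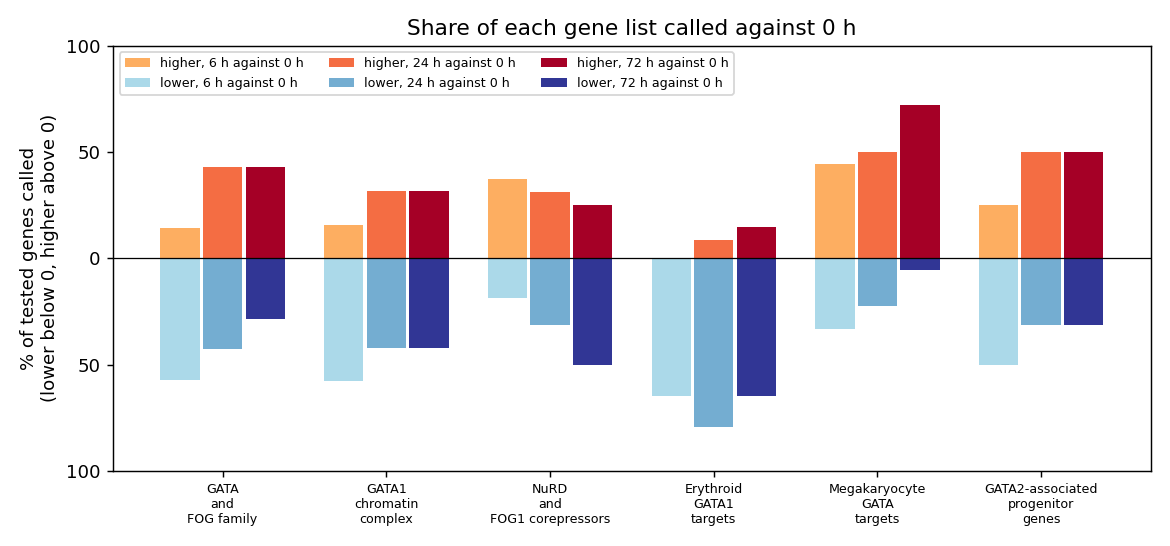
Share of the tested genes of each list that were called higher (above 0) or lower (below 0) at an adjusted p under 0.05 at 6, 24 and 72 h against 0 h. Erythroid genes are mostly called lower at all 3 times, and 13 of 18 tested megakaryocyte genes are called higher at 72 h. Tested genes include some that passed the filter through late libraries alone.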

How the data were processed

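Total RNA of K562 cells was sequenced at 8 times of PMA treatment, 2 libraries a time, and the authors deposited 1 transcript table per library. Per the file headers these are Salmon tables, with estimated counts (reads divided among transcripts, not normalised) and TPM per transcript. The submitters' processing notes name Salmon, Trim Galore 0.4.3 and the builds hg19 and hg38, and the transcript set is not given in the sources used here.

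Transcripts were assigned to GENCODE 29 genes by identifier without version (94.1% matched, leaving out 3.01 to 3.75% of reads). Of 167027 matched transcripts, 155541 had the same version in both, and GATA1-202 and ZFPM1-201 did not. Counts were summed per gene, rounded and tested with edgeR 4.0.16 in R 4.3.3 (TMM, filterByExpr, quasi-likelihood F-test, all 16 libraries in 1 fit, residual degrees of freedom of 8), with Benjamini-Hochberg adjustment over all genes and a threshold of 0.05. Transcripts were fitted the same way. CPM are TMM-scaled. Counts were also simulated for 6 h against 0 h over 17559 genes, with 200 genes changed and all else at the 0 h means. Of these genes, 79% of those changed 2-fold and 98% of those changed 4-fold were recovered, with 10 false calls among 187. In the data 57.2% of genes were called at 6 h, so the simulation does not measure recovery, false calls or scaling in that comparison. Shares and ratios of TPM were compared by exact permutation over libraries.

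DNA windows came from RefSeq. GATA2-AS1 and AC116552.1, antisense to GATA2 and ZFPM1, and MIR5189 inside ZFPM1 had no transcript in the files, and the strand setting of the counting is not given in the sources used here. Named were the 3 genes, their transcripts with a mean share of at least 5% or any of 10%, the 3 genes most alike in course, all tested genes of the family and partner lists, and from each other list the largest rise and fall at 72 h (at least 1 CPM) and the gene with the highest TPM. GATA1-201, GATA2-205 and GATA2-206 and the markers without reads were named outside this rule, after their values were seen. The members and the 8 gene lists were chosen with earlier results of these data known. Alternatives were DESeq2 1.42.0, its size factors, total counts, other filters, length-scaled counts, a GC correction, a replicate block, fewer libraries, other windows and, added after seeing the data, 1 mean per time.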

Additional observations from a re-analysis of the deposited data

How the results depend on the processing

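The fall of GATA1 at 3 and 6 h, the rise of GATA2 from 3 h on, the rise of ZFPM1 at 24 and 48 h and the GATA2 to GATA1 and ZFPM1 to GATA1 ratios kept their call and direction on leaving out each library in turn and under every alternative fit, other than, for the ratios, the window that includes 3 h, the comparisons within 1 replicate, which give no call, and 1 mean per time. DESeq2, its size factors in edgeR and the stricter filter changed no call or direction of the 3 genes. Where a time keeps 1 library, that library is assumed to vary like the others. Without a low-count filter, calls were gained for GATA1 and ZFPM1 at 0.5 h against 0 h (-0.42 and -0.50), GATA2 from 0.5 to 1.5 h (0.41), ZFPM1 from 1.5 to 3 h (0.44) and 3 to 6 h (-0.42), and GATA2 from 24 to 48 h (-0.38), and 1538 of 26879 genes were called at 0.5 h against 30 of 17559.

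With each library's GC trend removed, the 0.5 h values of GATA2 and ZFPM1 turned to 0.024 and 0.043, GATA1 at 48 h to -0.051, ZFPM1 from 24 to 48 h to -0.026 and GATA1 from 48 to 72 h to 0.11. The ZFPM1 call at 6 h was lost (-0.15), and calls were gained for GATA2 at 1.5 h (0.37), GATA2 from 0.5 to 1.5 h (0.35), 6 to 24 h (-0.55) and 24 to 48 h (-0.42), and ZFPM1 from 0.5 to 1.5 h (-0.30) and 1.5 to 3 h (0.22). Libraries of the same number deviated together in most but not all pairs of times (24 of 28 correlated over 0.1, range -0.30 to 0.60), and since not every pair did, the numbers were not taken to pair the libraries. The median gap between transcript length and Salmon's effective length was 210 to 221 nt in replicate 1 libraries. In replicate 2 libraries it was 229 to 248 nt, except for 199 nt at 0 h, a library in every contrast against 0 h. Whether the numbers mark a shared preparation was not tested. A replicate block changed no call of the 3 genes and ended that of the ZFPM1 to GATA2 ratio (-0.59, exact permutation adjusted p = 0.0600). A replicate block with the GC trend removed gave 0.025 and 0.044 for GATA2 and ZFPM1 at 0.5 h, -0.051 for GATA1 at 48 h, -0.026 for ZFPM1 from 24 to 48 h, 0.11 for GATA1 from 48 to 72 h and -0.15 for ZFPM1 at 6 h. It gained calls for GATA2 at 1.5 h (0.37), from 0.5 to 1.5 h (0.35), 6 to 24 h (-0.55) and 24 to 48 h (-0.42), and ZFPM1 from 0.5 to 1.5 h (-0.30) and 1.5 to 3 h (0.22).

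With only the 2 times compared, GATA1 and ZFPM1 lost their call at 1.5 h (-0.57 and -0.70), GATA1 at 72 h was -0.015, and GATA2 from 0.5 to 1.5 h was called (0.43). Length-scaled counts ended the ZFPM1 call at 6 h (-0.40) and gained that from 1.5 to 3 h (0.72). Total-count scaling gave -0.11 and -0.13 for GATA1 at 48 and 72 h and called GATA2 from 3 to 6 h (-0.38). For the shares and ratios, reads in place of TPM called ZFPM1-202 (-1.43 points) and ended the ZFPM1 to GATA2 call (-0.12), coding transcripts alone also ended it (-0.41), and the window of 0 to 3 h against 24 to 72 h gave 0.63, 0.57 and -0.065 for GATA2 to GATA1, ZFPM1 to GATA1 and ZFPM1 to GATA2. With 1 mean per time, chosen after seeing the data, the values were unchanged by construction and no p could fall under 0.1, so the calls of ZFPM1-201 (15.6 points), ZFPM1-204 (-3.62 points) and the ratios of GATA2 to GATA1 (1.48), ZFPM1 to GATA1 (0.89) and ZFPM1 to GATA2 (-0.59) were lost. The windows of 4 against 4 gave 14.7 points for ZFPM1-201 and -3.91 for ZFPM1-204, neither called after adjustment. Both had the smallest exact permutation p that 4 against 4 can give (0.0286). In replicate 1 alone the values were -0.84 (GATA2-201), -0.32 (GATA2-202), -1.69 (GATA2-203) and 0.0096 (GATA1-202) points, with ratios of 1.32 (GATA2 to GATA1) and 0.68 (ZFPM1 to GATA1), and in replicate 2 alone -9.57 points (GATA2-201), 1.65 and 1.099.

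Leaving out each library in turn gave these ranges where a call or sign of the 3 genes changed. For GATA1 they were -0.67 to -0.15 (0.5 h), -0.82 to -0.30 (1.5 h), -0.87 to -0.35 (24 h), -0.19 to 0.34 (48 h) and -0.22 to 0.31 (72 h), and by step -0.92 to -0.47 (1.5 to 3 h), 0.65 to 0.74 (24 to 48 h) and -0.074 to 0.016 (48 to 72 h). For GATA2 they were -0.50 to -0.061 (0.5 h) and -0.095 to 0.34 (1.5 h), and for ZFPM1 -0.76 to -0.21 (0.5 h), -0.97 to -0.41 (1.5 h), -0.50 to 0.055 (3 h), -0.93 to -0.38 (6 h) and 0.48 to 1.18 (72 h). The gains at 0.5 h came without replicate 1 of 0 h. Shares ranged from -6.09 to -3.81 points (GATA2-201), -0.0048 to 1.67 (GATA2-203) and -4.22 to -2.87 (ZFPM1-204), and the ZFPM1 to GATA2 ratio from -0.72 to -0.49. Among transcripts not called at these times, the sign changed for ZFPM1-203 (-1.35 to 0.40), ZFPM1-204 (-0.40 to 0.17) and ZFPM1-205 (-5.53 to 5.01) at 6 h and for GATA1-202 (-0.032 to 0.48), GATA2-202 (-2.11 to 2.69), ZFPM1-202 (-0.18 to 0.92), ZFPM1-204 (-0.16 to 0.68) and ZFPM1-205 (-5.51 to 6.31) at 72 h.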
